A study of Mus musculus with 16 samples.

Results

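A set of 10 genes of the NRF2 antioxidant response was followed in epidermal cells of the mouse footpad. The members are Nfe2l2, Keap1, Hmox1, Gclc, Gclm, Srxn1, Txnrd1, Slc7a11, Osgin1 and Prdx1, and they were taken by name, as rows of the count table whose Ensembl identifier carries that symbol. They were chosen with earlier results of these data known, so the choice was not blind to the values. All 10 were found among the 50600 gene rows of the table, and all 10 were among the 22155 that entered the tests with 10 or more counts over the libraries. Female C57/B6J mice received, from 5 wk of age and for 3 wk, a purified AIN-93M diet. This diet is poor in ligands of the aryl hydrocarbon receptor (AhR), a ligand-activated transcription factor (AhR-poor diet, labelled SYNTH), and the second diet was the same with 200 ppm of the AhR ligand precursor indole-3-carbinol (I3C diet). Both diets share the purified base, so no group ate normal chow. Each footpad was injected with 50 µl of PBS (vehicle) or with 50 µg of papain, a cysteine protease used as a model allergen, and epidermal cells were isolated with dispase 6 hr later. RNA-seq gave 4 libraries for each of the 4 combinations of diet and injection, 16 in all, with 22500821 to 51844375 counts per library. Mice on the same diet shared a cage, so diet and cage cannot be told apart.

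NRF2, the protein of Nfe2l2, is a transcription factor that turns on genes against oxidants and electrophiles. KEAP1 holds NRF2 in the cytoplasm and sends it for degradation. When cysteines on KEAP1 are oxidised, less NRF2 is degraded. NRF2 can then reach the nucleus, where it binds antioxidant response elements together with small MAF proteins. Much of this control acts on the protein, so the mRNA level of Nfe2l2 does not measure NRF2 activity. In the epidermis the pathway is known for guarding keratinocytes against ultraviolet light, metals and reactive chemicals, and several of its targets also answer to other factors, such as ATF4 on amino acid response elements.

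Positions are those of GRCm38 (GENCODE M21), and each covers the whole gene with its exons, introns and untranslated regions. Nfe2l2 (ENSMUSG00000015839) is at chr2:75675513-75704641 on the minus strand and Keap1 (ENSMUSG00000003308) at chr9:21229730-21239361 on the minus strand. Slc7a11 (ENSMUSG00000027737) spans chr3:49892526-50443614 on the minus strand, Gclc (ENSMUSG00000032350) chr9:77754535-77794485 and Gclm (ENSMUSG00000028124) chr3:122245557-122270732, both on the plus strand. Txnrd1 (ENSMUSG00000020250, chr10:82833951-82897712), Srxn1 (ENSMUSG00000032802, chr2:152105516-152111376) and Prdx1 (ENSMUSG00000028691, chr4:116685544-116700822) are on the plus strand, as are Hmox1 (ENSMUSG00000005413, chr8:75093621-75100589) and Osgin1 (ENSMUSG00000074063, chr8:119434124-119446256). Keap1 shares 510 exonic bases with Gm16754 on the opposite strand, and Gclm shares 244 with Gm6061 on its own strand and 296 with Gm17494 on the opposite one. The strand setting of the counting is not given in the sources used here, so reads of these partners may be included in Keap1 and Gclm.

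Promoter sequence (RefSeq, GRCm38.p6, 250 bases before to 50 after each start) was held for 8 of the 10 members in 10 windows, 3 of them of Txnrd1. Hmox1 and Gclc had no entry. Slc7a11 is shown first because it had the largest fold changes with papain. The 150 bases before its start, chr3:50443614-50443763 on the minus strand, hold TGATGCAA, the amino acid response letters, in both orientations, 66 and 47 bases before the start (capitals).
Slc7a11: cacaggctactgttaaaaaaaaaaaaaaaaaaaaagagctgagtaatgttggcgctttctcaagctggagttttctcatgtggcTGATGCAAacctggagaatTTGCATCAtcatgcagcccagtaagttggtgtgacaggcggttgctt
These letters were in 0.895% of all 32851 windows, and Slc7a11 was the only member with them. The next stretches show the antioxidant response element core, TGACNNNGC on either strand (capitals), in the members that hold it upstream of the start.
Nfe2l2, chr2:75704875-75704913, minus strand, 240 bases before the start: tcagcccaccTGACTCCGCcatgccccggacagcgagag
Gclm, chr3:122245403-122245451, plus strand, 134 bases before the start: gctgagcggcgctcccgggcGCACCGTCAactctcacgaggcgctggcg
Prdx1, chr4:116685446-116685494, plus strand, 133 bases before the start: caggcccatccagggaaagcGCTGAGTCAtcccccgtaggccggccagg
Txnrd1, chr10:82859094-82859142, plus strand, 92 bases before 1 of its 3 starts: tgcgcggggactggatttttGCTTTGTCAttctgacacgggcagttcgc
Srxn1 carried the core 28 bases after its start, so 5 of the 10 member windows held it, against 12.4% of all windows. The Prdx1 match is also the longer form TGACTCAGC, found in 0.454% of windows, which overlaps an AP-1 match. The AP-1 letters TGANTCA were in the windows of Srxn1, Osgin1 and Prdx1 (7.81% of all windows), and the AhR core GCGTG in 7 windows of Keap1, Gclm, Srxn1, Txnrd1 and Osgin1 (32.4% of all windows). The longer forms TGATGCAAT (0.192% of windows), TGATGNAAT (0.965%) and TTGCGTG (1.16%) were in no member window. Each match is a description of letters in a short window and not a bound site.

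Levels are given as counts per 1000000 counts (CPM) after scaling the libraries by the trimmed mean of M values (TMM), and groups are compared by edgeR's quasi-likelihood test with Benjamini-Hochberg adjustment over all 22155 genes. A gene is said to have risen or fallen at an adjusted p below 0.01, and to have been called when its log2 fold change was also above 1 or below -1. Per kilobase of exon, Prdx1 had the highest level of the 10 in each group (143 to 175 CPM per kb) and Slc7a11 the lowest (0.218 to 4.10 CPM per kb). Between them the order with vehicle on the I3C diet ran from Nfe2l2 (24.5 ± 2.75 CPM per kb, SD, n = 4) through Keap1, Gclc and Srxn1 to Txnrd1, Hmox1, Osgin1 and Gclm. The last 4 had means of 5.23 to 7.14 CPM per kb in both vehicle groups and lay within their spread of each other. Hmox1 moved most in this order, from rank 7 or 8 with vehicle to rank 5 on the I3C diet with papain (12.5 ± 1.90 CPM per kb) and rank 2 on the AhR-poor diet with papain (34.9 ± 15.7), where it did not differ from Nfe2l2 (27.6 ± 1.51) beyond its spread.

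**Figure D1:**
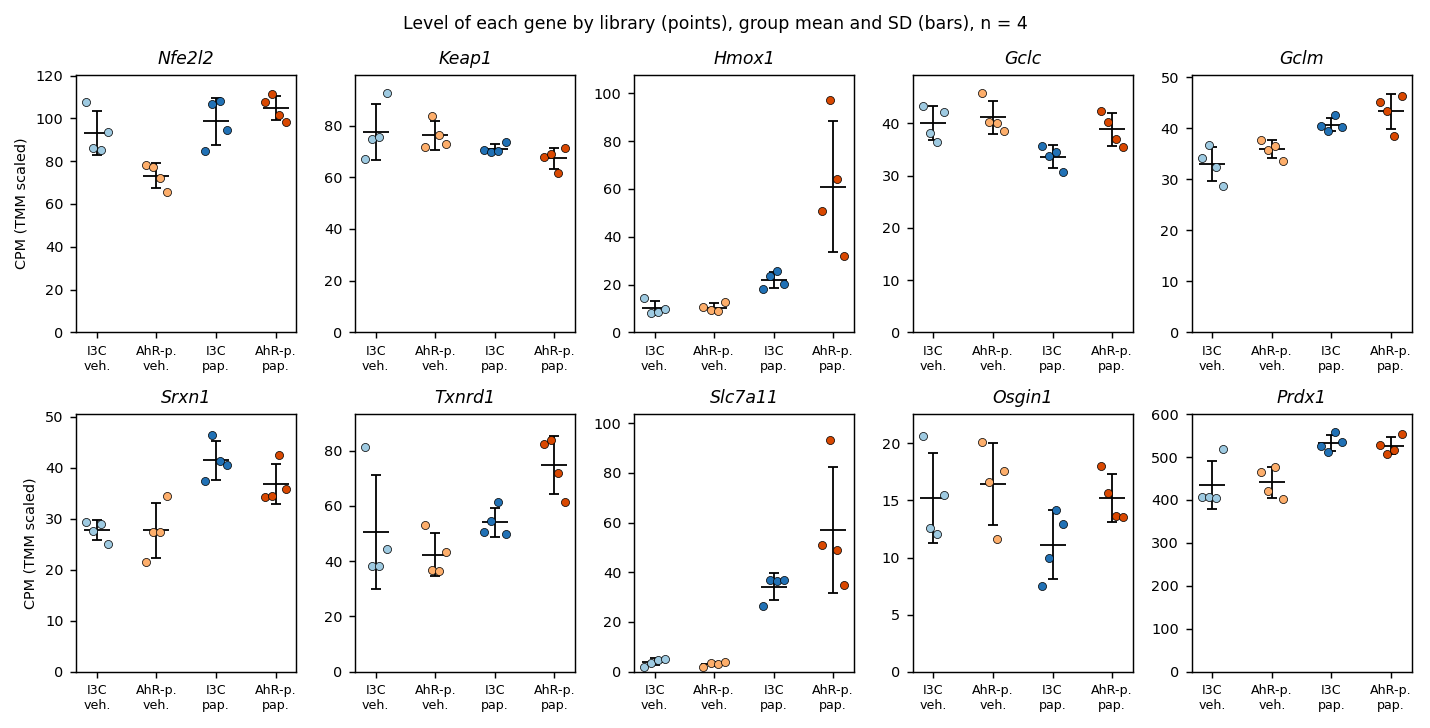
Level of each of the 10 genes (CPM, linear axes from 0, a panel per gene) in the 16 libraries, with a point per library and the mean ± SD of each group of 4. Slc7a11 and Hmox1 stand higher with papain on both diets, and Hmox1 reaches 31.9 to 97.3 CPM on the AhR-poor diet against 17.95 to 25.5 CPM on the I3C diet.

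Slc7a11 and Hmox1 rose with papain on both diets. Slc7a11 rose from 3.04 ± 0.703 to 57.0 ± 25.2 CPM on the AhR-poor diet and from 3.91 ± 1.40 to 34.2 ± 5.30 CPM on the I3C diet, and Hmox1 from 10.4 ± 1.68 to 61.0 ± 27.5 CPM and from 10.1 ± 3.04 to 21.8 ± 3.33 CPM (SD, n = 4 each). Smaller rises were found for Nfe2l2 and Txnrd1 on the AhR-poor diet and for Gclm, Srxn1 and Prdx1 on the I3C diet. No member fell by edgeR or by DESeq2, and at an unadjusted p under 0.05 only Gclc and Osgin1 on the I3C diet were lower, where 22.9% of all genes on that diet and 20.3% on the AhR-poor diet were lower at such a p.

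On the AhR-poor diet 4 of the 10 members rose with papain, against 12.4% of all genes tested, and 2 of them were called higher, against 6.04% of all genes. The number that rose was 3 to 7 when single libraries were left out, and 7 by DESeq2, against 18.0% of all genes by that test. None fell, where 10.1% of all genes fell and 2.42% were called lower. The median log2 fold change over the 10 was 0.34, and over all genes -0.00. The papain and vehicle libraries did not overlap for 7 members, against 33.0% of all genes, with papain above for 6 and below for Keap1. On the I3C diet 5 members rose, against 12.7% of all genes, and 2 were called higher, against 3.69%. Only 2 to 4 rose when single libraries were left out. None fell, where 12.9% of all genes fell and 5.29% were called lower. There the median log2 fold change of the members was 0.20 and that of all genes -0.04. The groups did not overlap for 5 members, against 33.4% of all genes, with papain above for 4 and below for Gclc.

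**Figure D2:**
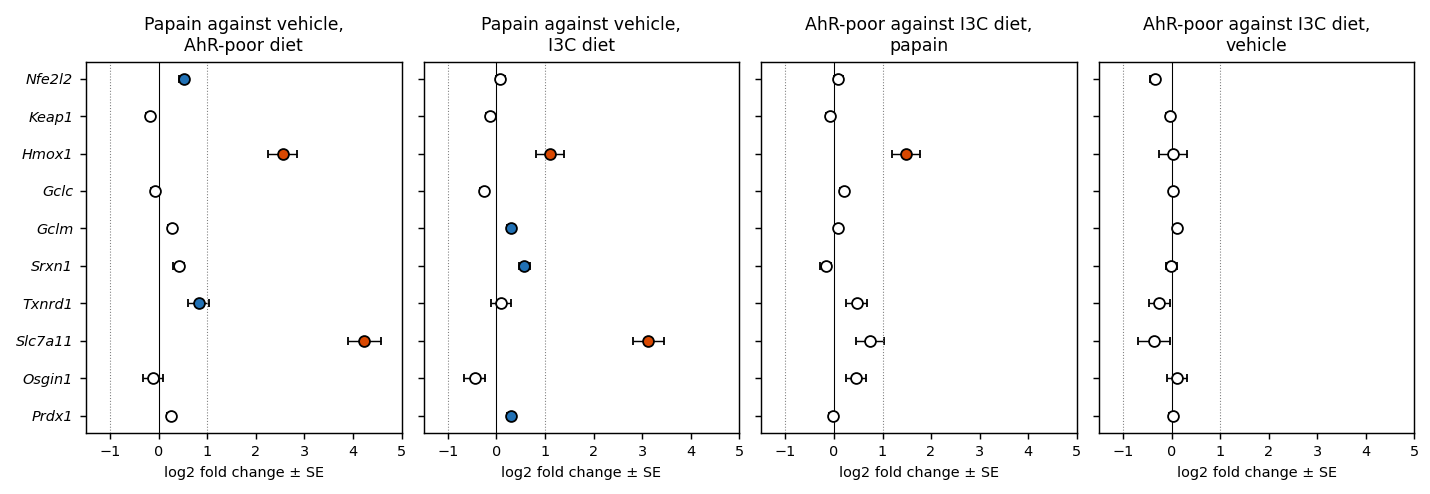
Log2 fold change ± SE of each gene for papain against vehicle on each diet and for AhR-poor against I3C with each injection. Orange points were called, blue points passed an adjusted p below 0.01 only, white points passed neither, and the dotted lines mark log2 fold changes of 1 and -1; Slc7a11 has the largest values, 4.23 and 3.13.

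Within the pair of sensor and factor, Nfe2l2 had in the libraries of the AhR-poor diet, in order of library code, 78.0, 77.2, 72.2 and 65.5 CPM with vehicle and 107.4, 111.3, 101.8 and 98.5 CPM with papain. Every papain library was above every vehicle library, and the gene rose by a log2 fold change of 0.52 (SE 0.09, edgeR adjusted p = 2.05e-04). Its I3C levels were 107.7, 86.0, 85.2 and 93.4 CPM with vehicle and 84.9, 106.5, 108.3 and 94.8 CPM with papain, groups that overlapped (log2 fold change 0.08, SE 0.09, edgeR adjusted p = 0.526). The vehicle libraries of the AhR-poor diet all stood below those of the I3C diet, as the lowest of the 4 groups. Keap1, whose protein marks NRF2 for degradation, had 61.5 to 71.2 CPM in the papain libraries of the AhR-poor diet, below the 71.6 to 83.9 CPM of their vehicle libraries, and did not pass the test (log2 fold change -0.18, SE 0.08, edgeR adjusted p = 0.120). Its groups on the I3C diet overlapped at 67.1 to 92.5 CPM with vehicle and 69.9 to 73.6 CPM with papain (log2 fold change -0.13, edgeR adjusted p = 0.273).

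Slc7a11, the cystine importer of system xc-, carries the amino acid for glutathione synthesis into the cell and stood out in both papain groups. On the AhR-poor diet it had 2.07, 3.36, 3.02 and 3.70 CPM with vehicle and 51.1, 93.3, 48.8 and 34.97 CPM with papain. With I3C it had 2.07, 3.59, 4.82 and 5.16 CPM with vehicle and 26.3, 37.0, 36.6 and 37.0 CPM with papain. No papain library came near a vehicle library, and the lowest count behind any of these values was 72. The log2 fold change was 4.23 on the AhR-poor diet (SE 0.34, edgeR adjusted p = 6.10e-07, 18.8-fold) and 3.13 on the I3C diet (SE 0.32, edgeR adjusted p = 3.37e-06, 8.75-fold). Among the genes called higher with a mean of at least 1 CPM, it ranked 119 of 871 on the AhR-poor diet and 89 of 640 on the I3C diet. Its promoter is the one shown above with the letters TGATGCAA in both orientations. Slc3a2, the heavy chain that pairs with it at the membrane, rose on the AhR-poor diet (log2 fold change 0.43, edgeR adjusted p = 0.00128) and had 0.14 on the I3C diet (edgeR adjusted p = 0.261).

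Gclc and Gclm encode the catalytic and the modifier subunit of glutamate-cysteine ligase, which makes the first bond of glutathione. Gclm had 33.5 to 37.7 CPM with vehicle and 38.5 to 46.3 CPM with papain on the AhR-poor diet (log2 fold change 0.27, SE 0.08, edgeR adjusted p = 0.0111), and 28.7 to 36.6 CPM with vehicle and 39.5 to 42.6 CPM with papain on the I3C diet, where it rose (log2 fold change 0.31, SE 0.08, edgeR adjusted p = 0.00481). The papain libraries stood above the vehicle libraries on both diets, and whether Gclm passed on each diet changed when single libraries were left out. Gclc did not pass on either diet, with 35.5 to 42.4 CPM against 38.5 to 45.8 CPM on the AhR-poor diet (log2 fold change -0.08, edgeR adjusted p = 0.480) and 30.7 to 35.7 CPM against 36.5 to 43.4 CPM on the I3C diet (log2 fold change -0.25, SE 0.08, edgeR adjusted p = 0.0213). Within each library the ratio of Gclc to Gclm counts, which does not depend on scaling, had a geometric mean of 1.15 with vehicle and 0.897 with papain on the AhR-poor diet, and 1.22 and 0.825 on the I3C diet. All 4 papain libraries were below all 4 vehicle libraries on each diet (exact two-sided permutation p = 0.0286 for both, the smallest that 4 against 4 allow). With Benjamini-Hochberg adjustment over the 12 ratio tests this became 0.114, so no ratio passed the correction. An adjusted value cannot lie below the smallest p of 0.0286, so with these group sizes no ratio could reach an adjusted p below 0.01.

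The ratio of Nfe2l2 to Keap1 had a geometric mean of 0.961 with vehicle and 1.56 with papain on the AhR-poor diet, again without overlap (exact permutation p = 0.0286, adjusted 0.114). With I3C it was 1.20 and 1.38, with overlap (exact permutation p = 0.257, adjusted 0.343). This overlap came from the vehicle library T108 at 1.60, above every I3C papain library (1.21 to 1.55). The vehicle libraries T109, T110 and T111 had 1.15, 1.13 and 1.01, below every I3C papain library. Srxn1 and Prdx1, an enzyme and the peroxiredoxin it repairs, kept no such order, since their ratio overlapped in all 4 comparisons (exact permutation p of at least 0.0857).

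**Figure D3:**
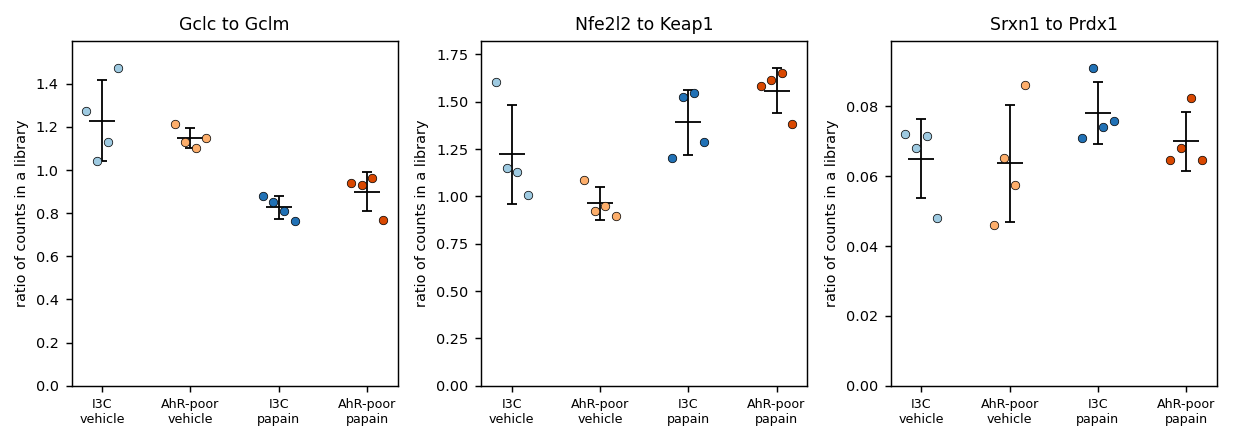
Ratio of counts of Gclc to Gclm, Nfe2l2 to Keap1 and Srxn1 to Prdx1 in each library, by group (linear axes from 0, a point per library, bar at the mean ± SD of 4). Gclc to Gclm lies lower in the papain group of each diet (0.897 and 0.825 against 1.15 and 1.22, geometric means), and Nfe2l2 to Keap1 lies higher with papain on the AhR-poor diet (1.56 against 0.961).

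Of the thioredoxin members, Txnrd1, the reductase that keeps thioredoxin active, had 53.1, 36.6, 36.4 and 43.4 CPM with vehicle and 82.3, 83.9, 71.8 and 61.4 CPM with papain on the AhR-poor diet. All papain values were above the vehicle values, and it rose with a log2 fold change of 0.82 (SE 0.21, edgeR adjusted p = 0.00758), and it no longer passed when any of 6 single libraries was left out. Its I3C libraries had 81.3, 38.3, 38.4 and 44.3 CPM with vehicle and 50.6, 54.7, 61.4 and 49.8 CPM with papain. The first of these vehicle libraries, T108, was far above the other 3 and above all papain libraries, and the log2 fold change was 0.10 (SE 0.21, edgeR adjusted p = 0.771). Without T108 it was 0.42 (edgeR adjusted p = 0.0193).

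Srxn1, sulfiredoxin, which repairs over-oxidised peroxiredoxins, had 29.4, 27.7, 29.0 and 25.0 CPM with vehicle and 37.4, 46.5, 41.4 and 40.6 CPM with papain on the I3C diet. It rose there without overlap (log2 fold change 0.58, SE 0.12, edgeR adjusted p = 5.57e-04). On the AhR-poor diet it had 21.4 to 34.5 CPM with vehicle and 34.3 to 42.5 CPM with papain, with a log2 fold change of 0.41 just outside the threshold (SE 0.12, edgeR adjusted p = 0.0102). Without T103, the vehicle library with the highest Srxn1 level, it was 0.54 (edgeR adjusted p = 8.50e-04). Prdx1, a peroxiredoxin that removes hydrogen peroxide and the most abundant member, had 401 to 477 CPM with vehicle and 507 to 554 CPM with papain on the AhR-poor diet (log2 fold change 0.25, SE 0.08, edgeR adjusted p = 0.0242). Its I3C libraries had 406 to 518 CPM and 511 to 558 CPM, and it rose just inside the threshold (log2 fold change 0.29, SE 0.08, edgeR adjusted p = 0.00919), and it no longer passed when any of 15 of the 16 libraries was left out.

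Hmox1 encodes heme oxygenase 1, which splits heme into biliverdin, iron and carbon monoxide, and it is made by keratinocytes and, at high levels, by macrophages. On the AhR-poor diet it had 10.7, 9.29, 9.0 and 12.7 CPM with vehicle and 50.7, 97.3, 64.2 and 31.9 CPM with papain. Its I3C libraries had 14.6, 7.93, 8.49 and 9.57 CPM with vehicle and 17.95, 23.5, 25.5 and 20.4 CPM with papain. Papain libraries stood above vehicle libraries on both diets, and those of the AhR-poor diet also stood above those of the I3C diet. The log2 fold change was 2.55 on the AhR-poor diet (SE 0.29, edgeR adjusted p = 1.41e-05) and 1.11 on the I3C diet (SE 0.29, edgeR adjusted p = 0.00739), and the second was no longer called when any of 7 single libraries was left out. It ranked 271 of the 871 genes called higher with a mean of at least 1 CPM on the AhR-poor diet and 542 of 640 on the I3C diet.

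Osgin1, an oxidative stress induced growth inhibitor, did not pass in any comparison. It had 11.6 to 20.1 CPM with vehicle and 13.5 to 18 CPM with papain on the AhR-poor diet (log2 fold change -0.11, edgeR adjusted p = 0.733), and 12.1 to 20.6 CPM and 7.48 to 14.2 CPM on the I3C diet (log2 fold change -0.45, SE 0.21, edgeR adjusted p = 0.114).

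With vehicle, no member differed between the diets by edgeR at an adjusted p below 0.01, where 1.72% of all genes passed in either direction and 1.59% were called. Nfe2l2 was the only member with an unadjusted p under 0.05, which 12.5% of all genes had in either direction. It was lower on the AhR-poor diet with a log2 fold change of -0.35 (SE 0.09, edgeR adjusted p = 0.0419), and DESeq2 also passed no member at its adjusted p of 0.01. Its groups did not overlap, as for 8.12% of all genes in either direction, and those of the other 9 overlapped. Slc7a11 (3.04 ± 0.703 against 3.91 ± 1.40 CPM) and Hmox1 (10.4 ± 1.68 against 10.1 ± 3.04 CPM) had edgeR adjusted p values of 0.760 and 0.994 in this comparison.

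With papain, Hmox1 was the only member that differed between the diets, 2.80-fold higher on the AhR-poor diet (log2 fold change 1.48, SE 0.28, edgeR adjusted p = 0.00183). When only the 8 libraries of this comparison were fitted, it did not pass (log2 fold change 1.49, edgeR adjusted p = 0.0157). Among all genes 8.13% passed higher and 7.15% were called higher, and 3.07% passed lower and 0.0993% were called lower. Hmox1 ranked 660 of 847 genes called higher with a mean of at least 1 CPM. Hmox1 and Txnrd1 had groups that did not overlap, both higher on the AhR-poor diet, where 24.9% of all genes did not overlap in either direction. Txnrd1 did not pass (log2 fold change 0.47, SE 0.21, edgeR adjusted p = 0.140), nor did Slc7a11 (0.74, SE 0.29, edgeR adjusted p = 0.0862; 0.38 without T105), whose lowest AhR-poor library, T112 with 34.97 CPM, lay within the I3C values. The median over the 10 was 0.15, and over all genes 0.01.

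The difference of the papain effect between the diets, tested as an interaction, passed for no member by edgeR at an adjusted p below 0.01, and 0.0181% of all genes passed and 0.0181% were called. At an unadjusted p under 0.05 there were 4 members, where 13.5% of all genes were under it in either direction, all with the larger effect on the AhR-poor diet. Hmox1 had a log2 difference of 1.45 (SE 0.40, edgeR adjusted p = 0.152), Slc7a11 1.10 (SE 0.44, edgeR adjusted p = 0.310), Txnrd1 0.72 (SE 0.30, edgeR adjusted p = 0.320) and Nfe2l2 0.43 (SE 0.13, edgeR adjusted p = 0.157). DESeq2 passed and called Hmox1 alone (1.46, adjusted p = 0.00668), beside 1.44% of all genes passed and 1.21% called by DESeq2. The rises that passed on a single diet, such as those of Nfe2l2 and Srxn1, are therefore not shown to differ between the diets by edgeR.

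Markers of keratinocytes and of other cell types were read in the same libraries. The 6 basal keratinocyte markers summed to 20727 to 36780 CPM and the 6 suprabasal markers to 16903 to 40899 CPM over the 16 libraries. Both sums were thus high in all libraries, but not each marker in them. Most of the suprabasal sum was Krt10 and Krt1, with means of 22460 and 5648 CPM on the I3C diet with papain. Flg, Ivl and Lor were far lower in every group, and lowest in that group (means 7.51, 10.7 and 33.9 CPM). The sum of 9 macrophage markers was 13.3 to 23.8 CPM on the I3C diet with vehicle, 46.4 to 56.9 CPM on the AhR-poor diet with vehicle, 9.18 to 39.6 CPM on the I3C diet with papain, and, for AhR-poor with papain, 118 to 521 CPM. Of the 9, edgeR called 7 higher with papain on the AhR-poor diet and 2 on the I3C diet, 5 higher on the AhR-poor diet with vehicle and all 9 with papain. Fcgr1 was at 0 in all 4 vehicle libraries of the I3C diet, in 2 of its papain libraries and in 2 vehicle libraries of the AhR-poor diet, and Cd163 in 2 vehicle and 2 papain libraries of the I3C diet. The 7 neutrophil markers summed to 2.93 to 6.15 CPM and 9.77 to 11.3 CPM with vehicle on the I3C and AhR-poor diets, and to 35.5 to 43.2 CPM and 51.2 to 214 CPM with papain. Ly6g was at 0 in all 4 libraries of each group but AhR-poor with papain. On the I3C diet with papain most of the sum was Cxcr2 (mean 24.2 CPM) and Mmp9 (10.1 CPM). In that group Csf3r had a mean of 0.739 CPM and Retnlg 0.0891 CPM, Camp was at 0 in all 4 libraries, and 2 of the 7 were called higher than with vehicle. The 6 fibroblast markers, of the dermis, summed to 2.14 to 13.3 CPM on the I3C diet and to 93.2 to 607 CPM on the AhR-poor diet, and the 6 erythrocyte markers to at most 17.2 CPM and at least 73.3 CPM. The 5 endothelial markers summed to 0.228 to 1.91 CPM on the I3C diet and 9.15 to 44.5 CPM on the AhR-poor diet, and all 5 were called higher on the AhR-poor diet with each injection. The 6 Langerhans cell markers summed to 204 to 603 CPM and 728 to 920 CPM on these diets, and 1 of the 6 was called higher on the AhR-poor diet with each injection. The 5 T cell markers summed to 68.0 to 100.1 CPM over the vehicle libraries and 143 to 213 CPM over the papain libraries. Most of this sum was Thy1, with means of 69.5 and 165 CPM on the AhR-poor diet and 80.5 and 157 CPM on the I3C diet. With papain only 1 of the 5 passed on each diet, and their median log2 fold change was 0.54 on the AhR-poor diet and -0.09 on the I3C diet. Between the diets, 2 of the 5 were called higher on the AhR-poor diet with papain and 0 with vehicle. In bulk RNA, more cells of a type and more RNA per cell cannot be told apart.

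Some of these sums stood in the same order as Hmox1 over the papain libraries of the AhR-poor diet. Among the papain libraries of the AhR-poor diet, T105 had the highest macrophage sum (521 CPM) and the highest Hmox1 (97.3 CPM), and T112 the lowest of both (118 and 31.9 CPM). T105 was also highest and T112 lowest for the sums of the neutrophil markers (214 and 51.2 CPM), the erythrocyte markers (1254 and 267 CPM) and the fibroblast markers (607 and 245 CPM), and for these 4 lists the other two libraries, T107 and T104, lay between in that order, as for Hmox1. Other lists had another order. The endothelial sum was highest in T105 (44.5 CPM) and lowest in T107 (16.9 CPM). The Langerhans cell sum was highest in T104 (920 CPM) and lowest in T112 (728 CPM), and the T cell sum highest in T104 (213 CPM) and lowest in T107 (143 CPM). T105 was also highest and T112 lowest for Slc7a11, Txnrd1 and Nfe2l2. Without T105, Hmox1 had a log2 fold change of 2.23 for papain on the AhR-poor diet (edgeR adjusted p = 6.83e-06) and of 1.15 between the diets with papain (edgeR adjusted p = 0.00282), and Slc7a11 had 3.89 for papain (edgeR adjusted p = 1.69e-07). On the I3C diet Hmox1 rose with papain while the macrophage sums of both groups overlapped. That sum does not follow each marker, as Csf1r, its largest part there, had means of 15.7 CPM with vehicle and 11.1 CPM with papain. The median log2 fold change of the 9 markers with papain was 1.48 on this diet, with 2 called higher and 0 lower. Between the vehicle groups the macrophage sums did not overlap while Hmox1 did. Csf1r was again the largest part of these sums, with means of 36.0 CPM on the AhR-poor diet and 15.7 CPM on the I3C diet. The Langerhans cell sums of the vehicle groups did not overlap either (769 to 872 against 232 to 526 CPM). The part of these cell types in the difference of Hmox1 between the papain groups was not tested.

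**Figure D4:**
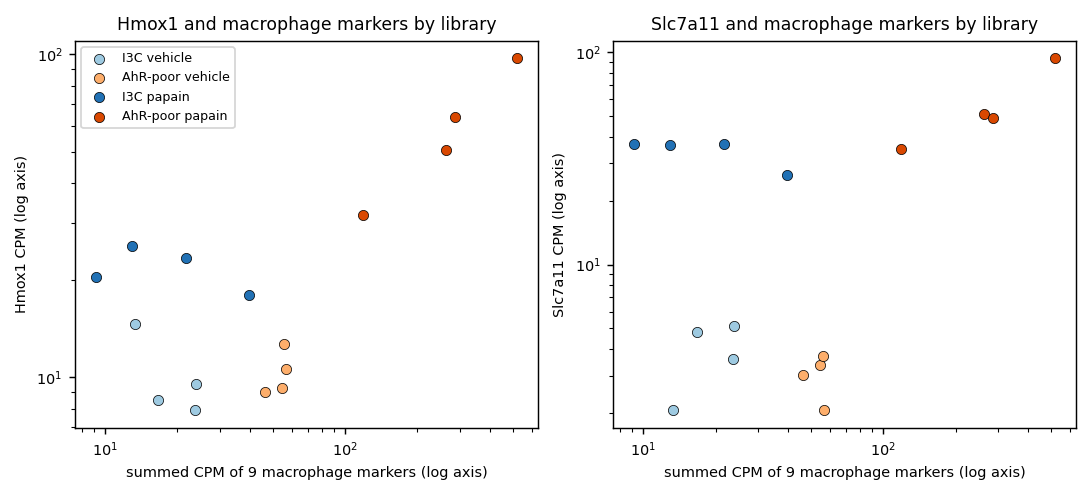
Hmox1 (left) and Slc7a11 (right) level of each of the 16 libraries against the summed level of the 9 macrophage markers, both in CPM on log axes and colored by group. In the Hmox1 panel the 4 papain libraries of the AhR-poor diet have macrophage sums of 118 to 521 CPM and Hmox1 of 31.9 to 97.3 CPM, and the papain libraries of the I3C diet have 9.18 to 39.6 CPM and 17.95 to 25.5 CPM.

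Beyond the 10 members, 62 other genes of the pathway were listed in 6 groups, and all 62 were tested. With papain, 20 of the 62 rose and 10 fell on the AhR-poor diet (6 called higher, none lower, median log2 fold change 0.15), and 17 rose and 15 fell on the I3C diet (5 called higher, 7 lower, median 0.06). Among all genes, 12.4% rose and 10.1% fell on the AhR-poor diet, with 6.04% called higher and 2.42% called lower. On the I3C diet 12.7% of all genes rose and 12.9% fell, with 3.69% called higher and 5.29% called lower.

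Of the 11 NRF2 regulators, Sqstm1 (p62, an adaptor that draws KEAP1 into autophagy) rose on the AhR-poor diet (log2 fold change 0.51, edgeR adjusted p = 0.00684, passed in 18 of 24 other settings) and had -0.09 on the I3C diet (edgeR adjusted p = 0.661). Btrc, of a ubiquitin ligase that also marks NRF2, fell on both diets (-0.68 and -0.84). Bach1, a repressor that competes with NRF2 at the Hmox1 gene, did not pass on either diet (0.22 and 0.14, edgeR adjusted p = 0.321 and 0.562). With vehicle, Nfe2l3, a relative of Nfe2l2, was the only regulator that differed between diets, higher on the AhR-poor diet (0.76, edgeR adjusted p = 0.00381, passed in 18 of 24 other settings).

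Of the 15 glutathione genes, 6 rose and 2 fell on the AhR-poor diet and 5 rose and 4 fell on the I3C diet. Gsta4, a glutathione transferase for lipid aldehydes, rose from 8.59 ± 3.13 to 104.97 ± 16.4 CPM on the AhR-poor diet and from 8.49 ± 2.16 to 160 ± 47.2 CPM on the I3C diet (log2 fold changes 3.61 and 4.24, SD over n = 4). Glutaredoxin, Glrx, rose on both diets (1.78 and 2.20), as did the glutathione cycle enzyme Ggct (0.57 and 1.08). Gpx2, a glutathione peroxidase, rose on the AhR-poor diet (1.10, passed in 15 of 24 other settings) and Chac1, which breaks glutathione down, on the I3C diet (0.95, passed in 19 of 24). Gsr, glutathione reductase, named here after its values were seen as the remaining gene called higher on the AhR-poor diet, rose on both (1.07 and 0.49). The transferases Gstm1 (-0.76 and -1.17) and Mgst2 (-0.80 and -1.01) fell on both, and the lipid peroxidase Gpx4 fell on the I3C diet (-0.70).

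Of the 10 other thioredoxin and peroxiredoxin genes, the mitochondrial Prdx3 (log2 fold changes 0.94 on the AhR-poor diet and 0.96 on the I3C diet) and Txn2 (0.51 and 0.47) rose on both diets. Txnip, which binds and blocks thioredoxin, fell on both (-0.44 and -1.15), and on the AhR-poor diet it passed in only 4 of 24 other settings. Prdx4 of the endoplasmic reticulum fell on the I3C diet (-0.64). Thioredoxin itself, Txn1, did not pass (0.35 and 0.28, edgeR adjusted p = 0.0437 and 0.104). Of the 6 genes that supply NADPH, the pentose phosphate enzymes Taldo1 (0.37 and 0.36) and Pgd (0.36 and 0.43) rose on both diets and Tkt on the I3C diet (0.27, passed in 11 of 24 other settings), and none fell.

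Of the 8 heme and iron genes, the transferrin receptor Tfrc rose on both diets (log2 fold changes 0.45, passed in 18 of 24 other settings, and 0.75), Fech, the last enzyme of heme synthesis, fell on both (-0.68 and -0.56), and biliverdin reductase Blvrb fell on both (-0.42 and -0.67). Hmox2, the constitutive heme oxygenase, rose on both with small values (0.27 and 0.29), and passed in 15 of 24 other settings on the AhR-poor diet and 17 of 24 on the I3C diet. The ferritin chains store the iron that heme oxygenase frees. Fth1 went from 538 ± 67.7 to 1014 ± 254 CPM on the AhR-poor diet, where it rose (0.91, edgeR adjusted p = 9.26e-05), and from 600 ± 65.4 to 631 ± 57.0 CPM on the I3C diet (0.07, edgeR adjusted p = 0.751). Ftl1 rose from 129 ± 23.4 to 199.6 ± 47.0 CPM on the AhR-poor diet (0.63, edgeR adjusted p = 0.00840, passed in 13 of 24 other settings) and fell from 125 ± 20.3 to 75.6 ± 10.1 CPM on the I3C diet (-0.73, edgeR adjusted p = 0.00267). The difference between these Ftl1 effects was 1.36 (edgeR adjusted p = 0.0282) and did not pass. Ferritin genes have many processed copies, so their counts depend on how shared reads were assigned. The iron exporter Slc40a1 fell on the I3C diet (-1.18).

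Of the 12 other known NRF2 targets, 5 rose and 4 fell on each diet. Nqo1, a quinone reductase often used as a readout of NRF2, rose from 6.14 ± 1.67 to 31.3 ± 6.64 CPM on the AhR-poor diet and from 7.89 ± 1.25 to 39.4 ± 9.10 CPM on the I3C diet (log2 fold changes 2.35 and 2.32, edgeR adjusted p = 9.51e-07 and 4.86e-07). The aldo-keto reductase Akr1b8 (1.77 and 1.94), the carbonyl reductase Cbr3 (0.72 and 0.96) and the mitochondrial Sod2 (0.75 and 0.81) rose on both. Ephx1, microsomal epoxide hydrolase (-0.91 and -1.42), Pir (-0.79 and -1.12) and the cytosolic Sod1 (-0.66 and -1.28) fell on both.

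**Figure D5:**
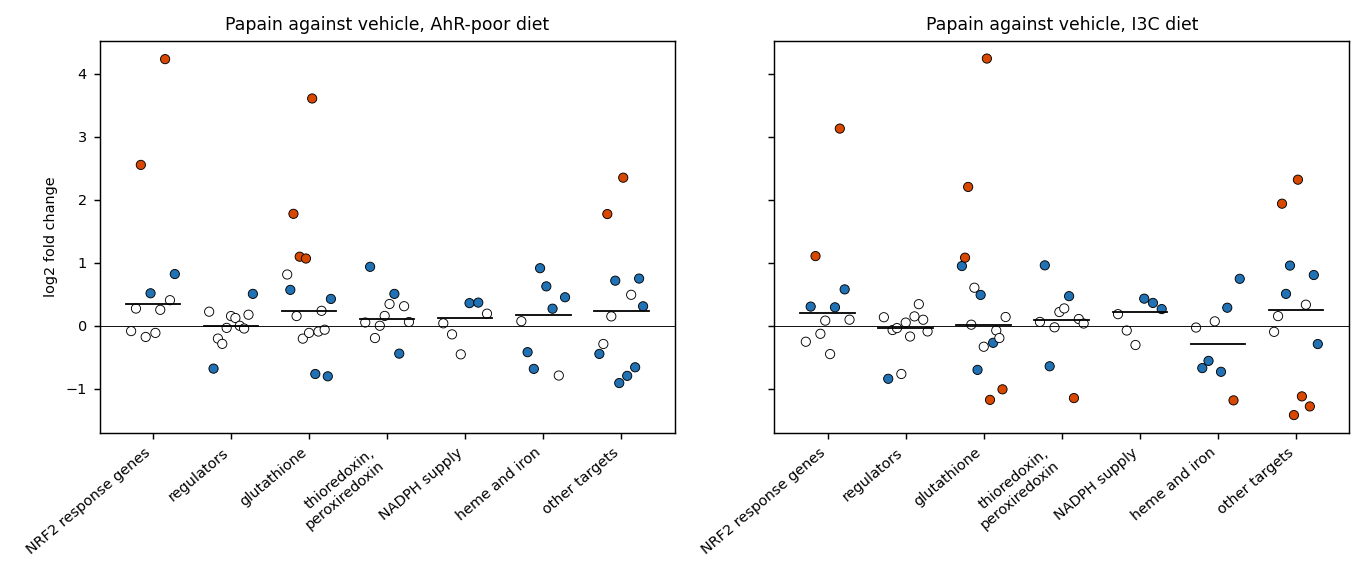
Log2 fold change with papain of the 10 members and of the 62 other pathway genes by list, on each diet, with a point per gene and a black bar at the list's median. Orange points were called and blue points passed an adjusted p below 0.01 only; the glutathione list has genes on both sides of 0, such as Gsta4 (3.61 and 4.24) and Gstm1 (-0.76 and -1.17).

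Between the diets with papain, the AhR-poor group had 8 of the 62 higher and 1 lower, beside 8.13% and 3.07% of all genes. Ftl1 was called (log2 fold change 1.40, edgeR adjusted p = 2.76e-05) and was the only one of the 62 that was. Of all genes, 7.15% were called higher and 0.0993% lower. Fth1 (0.69), Mgst1 (0.73), Gpx4 (0.62), Gstm1 (0.47), Txnip (0.57), Sod1 (0.59) and Ugdh (0.44) passed higher, and the exporter Abcc1 passed lower (-0.44). Mgst1 passed in 17 and Abcc1 in 16 of 24 other settings. Nqo1, Gsta4, Glrx and Akr1b8 did not pass between the diets (-0.33, -0.61, -0.12 and -0.31, edgeR adjusted p of at least 0.112). With vehicle, catalase, Cat, was the other gene that passed beside Nfe2l3 (0.59 higher on the AhR-poor diet, edgeR adjusted p = 0.00411, passed in 19 of 24 other settings). No interaction passed for any of the 62 by edgeR, where 16 had an unadjusted p under 0.05, beside 13.5% of all genes, and 3 passed by DESeq2, beside 1.44% of all genes.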

How the data were processed

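Epidermal cells of 16 mice, 4 per group, were profiled with the TruSeq Stranded mRNA kit and paired-end sequencing in 3 sequencing units; the unit of each library is not given, so it could not be a term in a model. The authors aligned reads with STAR to mm10 after FastQC and deposited raw counts per gene and library without normalization; they used DESeq2. The counting tool, annotation release and strand setting are not given in the sources used here. Of 50600 identifiers, 50376 matched a symbol in GENCODE M21. Groups came from the labels alone. The 22155 genes whose counts reached 10 over all libraries were fitted in edgeR 4.0.16 (R 4.3.3) with TMM factors, a mean per group and the robust quasi-likelihood F test, with Benjamini-Hochberg adjustment over all genes tested. A gene was called when the adjusted p was below 0.01 and the size of the log2 fold change exceeded 1. The fit was also run on simulated data, with changes larger than most of the members', and its outcome is not given here. Standard errors were derived from the F statistic. Ratios of members within a library were compared with exact two-sided permutation tests of log2 ratios (smallest p 0.0286). Each member was also compared by an exact permutation test of log2(CPM + 0.5). Alternatives were DESeq2 1.42.0, other scalings and filters, an adjusted p below 0.05, only the 8 libraries compared, and leaving out each library.

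At 22500821 to 51844375 counts per library, 3 counts equal at most 0.130 CPM, well below every member's level. The study's methods call the 4 libraries of a group biological replicates, and p-values measure the spread between these libraries. The 10 members and the gene lists were chosen with earlier results of these data known. All 10 members were named in every comparison. Of the other lists, genes past an adjusted p below 0.01 with a mean of at least 1 CPM were ranked. The 3 with the largest log2 fold change in each list, comparison and direction were named, with Slc3a2, Bach1, Sqstm1, Txn1 and Nqo1. Gsr, and Chac1, which came after Gsta4, Glrx and Ggct on the I3C diet, were named outside this rule.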

Additional observations from a re-analysis of the deposited data

Results flagged for a closer look

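The level of each member was checked within each group of 4 libraries for a single library far from the other 3, which makes 40 groups. In 4 of them the gap to the nearest library took more than 0.829 of the group's range (Dixon's 95% critical value for 4), where chance gives about 1 in 20 groups. Txnrd1 was highest in T108, an I3C vehicle library, at 81.3 CPM (0.859 of the range). Without passing 0.829, T108 was also the highest of its group for Nfe2l2 (107.7 CPM), Hmox1 (14.6), Osgin1 (20.6), Gclc (43.4) and Srxn1 (29.4). It was the lowest for Keap1 (67.1 CPM) and Slc7a11 (2.07). Without T108, papain on the I3C diet gave log2 fold changes of 1.33 for Hmox1 and 2.92 for Slc7a11, against 1.11 and 3.13 with it. Prdx1 was highest in T111, also an I3C vehicle library, at 518 CPM (0.989). Slc7a11 was lowest in T106, an I3C papain library, at 26.3 CPM (0.967). Keap1 was highest in T115, also an I3C papain library, at 73.6 CPM (0.864), in a group whose whole spread was small. What sets these libraries apart was not tested.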

How the results depend on the processing

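No paired analysis was possible because no replicate code is shared between groups. Slc7a11 on both diets, and Hmox1 on the AhR-poor diet, were called under all alternatives, with log2 fold changes of 3.89 to 4.41, 2.92 to 3.29 and 2.23 to 2.77 when single libraries were left out. Hmox1 between the papain groups was called in all 16 of those fits (1.15 to 1.70) but not with only the 8 libraries compared (1.49, adjusted p = 0.0157), so that count of called members went from 1 to 0. Scaling by library size alone moved the median of all genes in this comparison from 0.01 to 0.11 and Hmox1 to 1.59.

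The number of members that rose with papain on the AhR-poor diet was 4, and it was 7 by DESeq2, 7 at an adjusted p below 0.05 and 3 to 7 without single libraries (7 without T111). Gclm passed without any of 9 libraries (T100, T106, T107, T109, T110, T111, T113, T114 or T115) and Srxn1 without any of 4 (T103, T106, T111 or T113), while Txnrd1 was lost without any of 6 (T101, T102, T103, T104, T105 or T107; adjusted p = 0.0256 without T101). On the I3C diet 5 rose, 3 by library size alone and 2 to 4 without single libraries, since Prdx1 passed only without T111 and Gclm was lost without T110, T111 or T114. Members called there were 2, and 1 to 2 without single libraries or 1 with every gene of at least 1 count, because Hmox1 lost its call (adjusted p = 0.0145 with that filter, and without T100, T109, T110, T111, T113, T114 or T115). Members that differed between the diets with vehicle were 0, and 1 at an adjusted p below 0.05 (Nfe2l2). For the interaction DESeq2 gave 1 member, Hmox1, by both rules.

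With 4 against 4 libraries, exact permutation tests of single members give 0.0286 wherever groups do not overlap, so they add nothing to the counts of groups without overlap.

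Values near 0 changed sign. By library size alone, Keap1 became 0.018 and Srxn1 0.041 between the vehicle groups, Keap1 0.030 and Prdx1 0.089 between the papain groups, and the interactions of Keap1, Gclm and Prdx1 became 0.012, 0.027 and 0.022. With at least 10 counts in every library, Srxn1 between the vehicle groups became 0.013, Prdx1 between the papain groups 0.032 and the Gclm interaction 0.0011. Without single libraries, papain gave Osgin1 -0.24 to 0.0066 on the AhR-poor diet and Txnrd1 -0.016 to 0.42 on the I3C diet. Between the vehicle groups the ranges were Keap1 -0.088 to 0.073, Hmox1 -0.079 to 0.26, Gclc -0.022 to 0.079, Srxn1 -0.13 to 0.098, Txnrd1 -0.38 to 0.071 and Prdx1 -0.030 to 0.12. Prdx1 had -0.042 to 0.0095 between the papain groups, and the interactions were Keap1 -0.14 to 0.013, Gclm -0.073 to 0.034 and Prdx1 -0.13 to 0.020. The log2 ratio of Gclc to Gclm had -0.16 to 0.0045 and that of Srxn1 to Prdx1 -0.20 to 0.096 between the vehicle groups. The cause of these changes was not tested.

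The 10 genes had at least 72 counts in every library. A p over the threshold does not show that a gene was the same.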
